A study of Homo sapiens with 2 samples.

Results

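The contacts described here are those of captured fragments at the ABL1 to FAM78A locus on chromosome 9. Each joins such a fragment to another less than 1 Mb away on the same chromosome. The contacts were chosen as unordered pairs of restriction fragments with an end on a bait fragment. This bait fragment had to hold an end of ABL1, NUP214, LAMC3, AIF1L, FAM78A, QRFP or EXOSC2. That end can be a gene's start or its far end, so the fragment need not hold a promoter. A bait fragment is a piece cut by the enzyme HindIII that the capture probes pull out. There were 205 such pairs of 84049 in the DMSO list and 223 of 91305 in the ponatinib list, 294 different pairs in all, and they belonged to 7 of 17883 bait fragments. The pairs come from promoter-capture Hi-C of K562 cells, an established cell line from a chronic myelogenous leukaemia that carries the BCR-ABL1 fusion gene. The cells were kept for 24 h with the vehicle DMSO or with ponatinib at 100 nM, a drug that blocks the ABL tyrosine kinase. With 1 library for each, differences between the lists could not be set against replicates, and no p-value is given. Intervals printed below are 95% exact binomial intervals and cover counting error only. Read depth is unknown.

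In chronic myelogenous leukaemia a break inside ABL1 joins the greater part of this kinase gene to BCR on chromosome 22, and in K562 the joined segment is known to be present in extra copies. Promoter-capture Hi-C counts ligations between fragments that lie close together in the nucleus, and on an intact chromosome the contacts of a promoter thin out with distance. A rearrangement shows as contacts that stop at a position or that reach sequence placed elsewhere on the reference. The lists give no copy number, so more copies of a segment and more contacts per copy cannot be told apart in any number below.

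The 7 fragments follow the genes along the chromosome. The fragment at chr9:130689810-130695578 holds the start of EXOSC2, which encodes a subunit of the RNA-degrading exosome. The next, chr9:130701356-130714364, holds the far end of EXOSC2 and the upstream start of ABL1. The fragment at chr9:130886468-130895045 holds the last part of ABL1 and an end of QRFP, a neuropeptide gene, so these genes share every pair counted there. LAMC3, a laminin chain gene, has an end on chr9:131006912-131011016. AIF1L, which encodes an actin-binding protein, has one on chr9:131095057-131098968. The start of NUP214, a nuclear pore gene, lies on chr9:131125554-131128557, and the upstream end of FAM78A on chr9:131275730-131281300. ABL1, on 2 fragments, runs from 130713043 to 130887675 and FAM78A ends at 131281045, and this stretch is called the segment below. The first 2 fragments lie at or before its start and are called the EXOSC2 side, and the other 5 are called the inner fragments.

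RefSeq promoter windows (GRCh38.p14, 250 bases before to 50 after a start) were held for 4 of the 7 genes. They are shown for the fragments that the results turn on. The NUP214 window holds the HindIII site AAGCTT, in capitals, at which its bait fragment begins. The other start of NUP214 lies on a fragment that was listed in DMSO only, and its window has no AAGCTT. The downstream start of ABL1 and the start of EXOSC2 also have no AAGCTT, and the capitals there mark the GC box GGGCGG on either strand.
NUP214 (chr9:131125336-131125635, + strand): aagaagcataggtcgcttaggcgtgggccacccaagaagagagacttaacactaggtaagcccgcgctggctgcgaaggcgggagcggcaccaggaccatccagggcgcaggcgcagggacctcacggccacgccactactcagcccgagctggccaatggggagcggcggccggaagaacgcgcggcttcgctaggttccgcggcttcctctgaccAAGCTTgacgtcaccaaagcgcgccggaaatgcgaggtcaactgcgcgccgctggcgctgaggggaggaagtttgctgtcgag
NUP214, second start (chr9:131189889-131190188, + strand): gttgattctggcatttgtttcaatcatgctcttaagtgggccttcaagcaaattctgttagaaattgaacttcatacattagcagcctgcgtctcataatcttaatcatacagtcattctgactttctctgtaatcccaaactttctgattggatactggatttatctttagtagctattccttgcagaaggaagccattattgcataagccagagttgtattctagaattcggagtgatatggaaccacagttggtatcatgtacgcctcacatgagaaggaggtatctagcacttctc
ABL1, downstream start (chr9:130835004-130835303, + strand): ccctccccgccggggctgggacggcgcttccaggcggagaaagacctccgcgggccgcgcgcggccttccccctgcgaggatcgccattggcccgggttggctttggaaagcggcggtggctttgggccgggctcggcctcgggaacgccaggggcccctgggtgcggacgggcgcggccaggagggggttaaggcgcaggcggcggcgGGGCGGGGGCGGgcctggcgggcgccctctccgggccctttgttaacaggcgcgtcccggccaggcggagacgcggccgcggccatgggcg
EXOSC2 (chr9:130693510-130693809, + strand): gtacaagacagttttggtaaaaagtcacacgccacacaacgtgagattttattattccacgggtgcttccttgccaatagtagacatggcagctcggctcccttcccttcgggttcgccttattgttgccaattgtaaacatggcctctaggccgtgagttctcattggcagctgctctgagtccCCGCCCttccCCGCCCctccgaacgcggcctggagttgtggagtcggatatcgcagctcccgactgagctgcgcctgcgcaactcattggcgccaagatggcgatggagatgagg
The border in the NUP214 window cuts its promoter, so most of the bases before the start at 131125586 belong to the fragment upstream and not to the bait. That upstream stretch, 131101574 to 131125553, was in no listed pair. The site AAGCTT is in 5.84% of the 35116 windows of the table and GGGCGG in 45.0%. Over all chromosomes, 664 of 664 listed fragment starts that fall inside a window had AAGCTT from the base before the start, which matches the enzyme and the build of the lists to the sequence.

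The inner fragments were crowded with short contacts. NUP214 had 68 pairs in DMSO and 71 in ponatinib, which ranked 4 of 15381 bait fragments with a pair under 1 Mb and 3 of 15444. The fragment of ABL1 and QRFP had 41 and 50 pairs, and LAMC3 had 36 and 40. AIF1L had 21 and 24, and FAM78A 22 and 18. The mean of the inner fragments was 37.6 in DMSO and 40.6 in ponatinib, against 5.76 and 6.18 over all other bait fragments of the lists, so it was 6.52 and 6.57 times as high. At or above the lowest inner fragment lay 3.73% of the other bait fragments in DMSO and 6.56% in ponatinib. The EXOSC2 side had a mean of 10.5 in DMSO and 11.0 in ponatinib, 1.82 and 1.78 times that of other bait fragments. It had 11 and 3 pairs at the EXOSC2 start and 10 and 19 at the fragment of EXOSC2 and ABL1. The 19 in ponatinib, at rank 794 of 15444, exceeded the 18 of FAM78A, at rank 905. The inner fragments and the EXOSC2 side thus overlapped in that list.

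**Figure D1:**
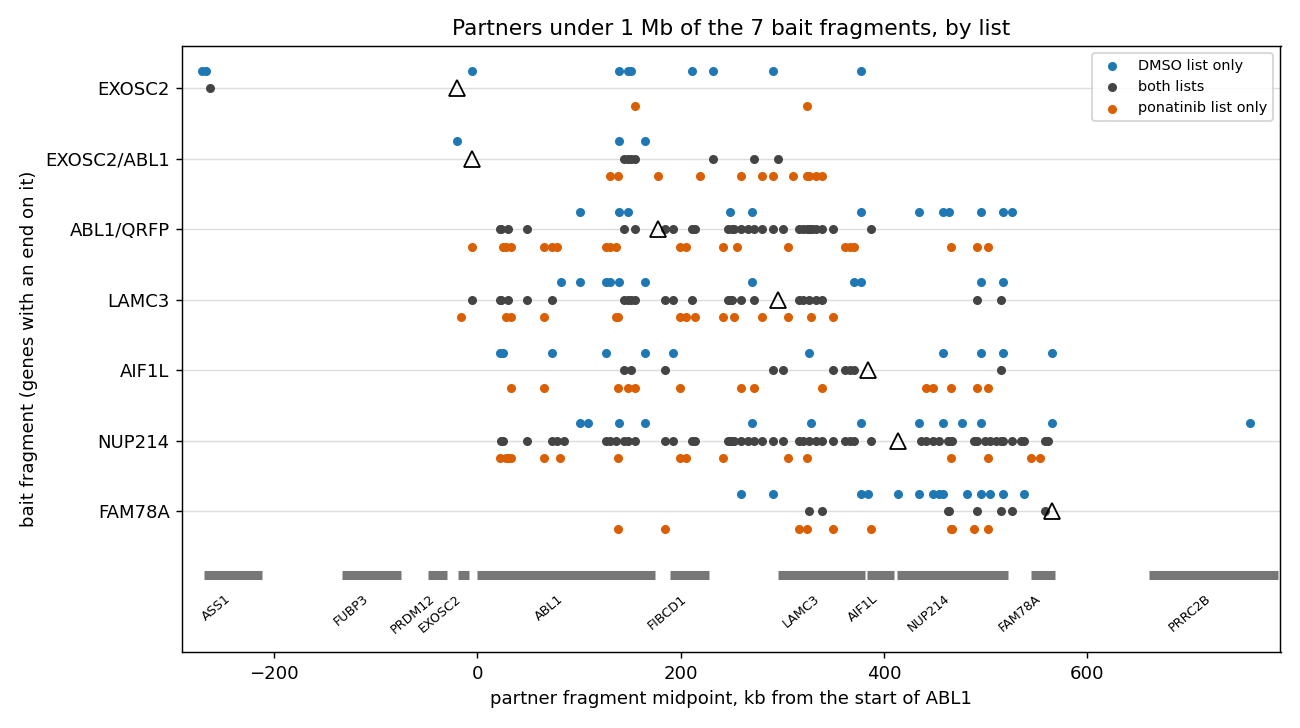
Partners under 1 Mb of each of the 7 bait fragments (rows, named by the genes with an end on them), by the partner's midpoint in kb from the start of ABL1; open triangles mark the bait itself, grey bars the genes, and colours the list or lists that hold the pair. The inner fragments fill the stretch from ABL1 to FAM78A and 1 pair, in DMSO, lies beyond FAM78A.

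Few contacts of the inner fragments passed the ends of the segment. Just after the start of ABL1, at 130725000, 16 of all 205 pairs crossed in DMSO (7.80%, 4.53 to 12.4%) and 22 of 223 in ponatinib (9.87%, 6.29 to 14.6%), most of them from the EXOSC2 side into the segment. Of the inner fragments' own pairs, 1 of 186 pairs of the inner fragments crossed in DMSO (0.538%, 0.0136 to 2.96%) and 3 of 203 in ponatinib (1.48%, 0.306 to 4.26%). After the end of FAM78A, at 131300000, there were 1 of 186 (0.538%) and 0 of 203, which allows up to 1.80%. Between these positions lay both ends of 184 of the 205 pairs in DMSO and 200 of the 223 in ponatinib. At 131000000, in the middle of the segment, 84 and 101 pairs crossed. The 7 fragments lie on both sides of this position but all to the left of 131300000. The number crossing a position thus depends in part on where these fragments lie. On the left, the first fragment reached from NUP214 began at 130735408 in DMSO and at 130734984 in ponatinib, some way inside ABL1. The fragment before it, 130725918 to 130734983, had no pair with any of the 7 fragments. It had 6 pairs with other fragments in each list, 5 of them between chromosomes. FAM78A had 22 partners to its left and 0 to its right in DMSO, and 18 and 0 in ponatinib, whereas 50.4% and 50.1% of the partners of other bait fragments lay to the right. NUP214 had 43 partners left and 25 right in DMSO and 48 and 23 in ponatinib. Its farthest left partner was 391 kb away in DMSO and 392 kb in ponatinib, next to the last listed fragment of the segment on that side at 397 kb.

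**Figure D2:**
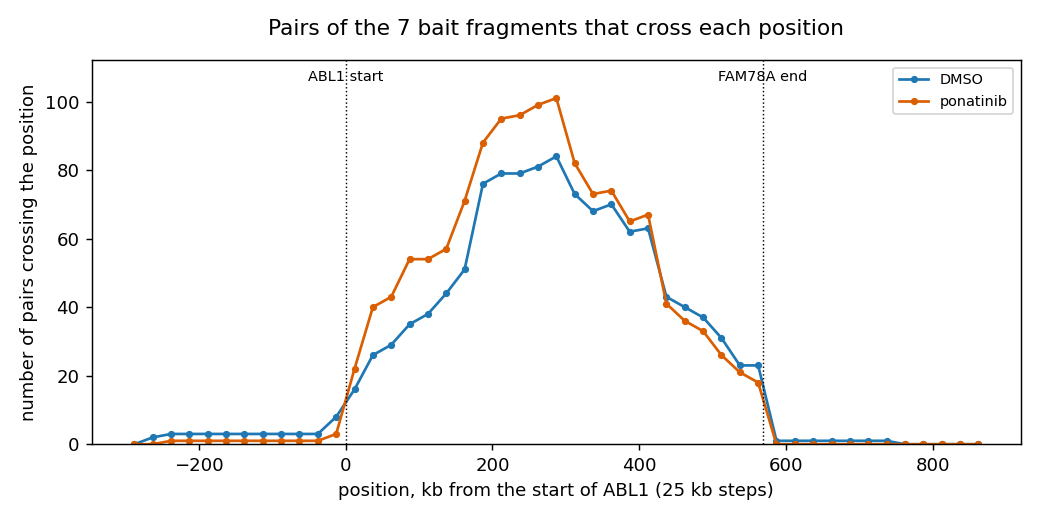
Number of pairs of the 7 bait fragments that cross each position, in 25 kb steps by kb from the start of ABL1, in the DMSO and ponatinib lists. The number rises after the start of ABL1, to 84 in DMSO and 101 in ponatinib, and falls to 1 and 0 after the end of FAM78A. The places of the 7 fragments set part of this profile.

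The inner fragments had most of their pairs at short range and hardly any past 400 kb. Pairs under 100 kb numbered 15.2 per inner fragment in DMSO and 16.6 in ponatinib, 12.0 and 12.8 times the 1.26 and 1.30 of other bait fragments. From 100 to 200 kb the inner fragments had 12.8 and 13.2 pairs, and from 200 to 300 kb 6.20 and 6.80. From 300 to 400 kb they had 3.40 and 3.80, which was 4.48 and 4.66 times the others. Beyond 400 kb they had 0 pairs in DMSO and 1 in ponatinib, where other bait fragments still had 0.478 and 0.521 pairs from 400 to 500 kb. At 500 kb or more lay 0 of 205 pairs in DMSO (0 to 1.78%) and 0 of 223 in ponatinib (0 to 1.64%), against 13.6% (13.4 to 13.9%) and 14.5% (14.3 to 14.8%) of all other pairs under 1 Mb. The 5 bait fragments elsewhere with numbers closest to those of NUP214, named at the end, also had no more than 1 pair each at 500 kb or more in either list. Among the listed fragments of the segment that are no bait, the farthest from NUP214 lay 397 kb to the left and 147 kb to the right. The farthest from the fragment of ABL1 and QRFP lay at 384 kb, from LAMC3 at 279 kb and from AIF1L at 367 kb. Of the inner fragments, only FAM78A thus had any of these fragments past 400 kb. The farthest from FAM78A lay at 548 kb, and its own farthest partner lay at 306 kb in DMSO and 428 kb in ponatinib.

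Scores, which are the authors' own value for each pair, stayed high over distance at NUP214. For NUP214 the median score was 10.5 under 100 kb and 10.2 at 300 to 400 kb in DMSO, and 11.9 and 10.4 in ponatinib. Other pairs had medians of 6.37 and 6.35 in DMSO and 6.45 and 6.42 in ponatinib in the same bins. The rank correlation of score with distance over the NUP214 pairs was -0.0514 in DMSO (n = 68) and 0.0555 in ponatinib (n = 71). Over other pairs it was -0.0374 (n = 73381) and -0.0365 (n = 79244). The inner fragments were not alike in this: AIF1L had -0.334 (n = 21) and -0.357 (n = 24), and LAMC3 had 0.0753 (n = 36) and 0.295 (n = 40). The pairs of a fragment share 1 library and 1 bait, so these are descriptions.

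**Figure D3:**
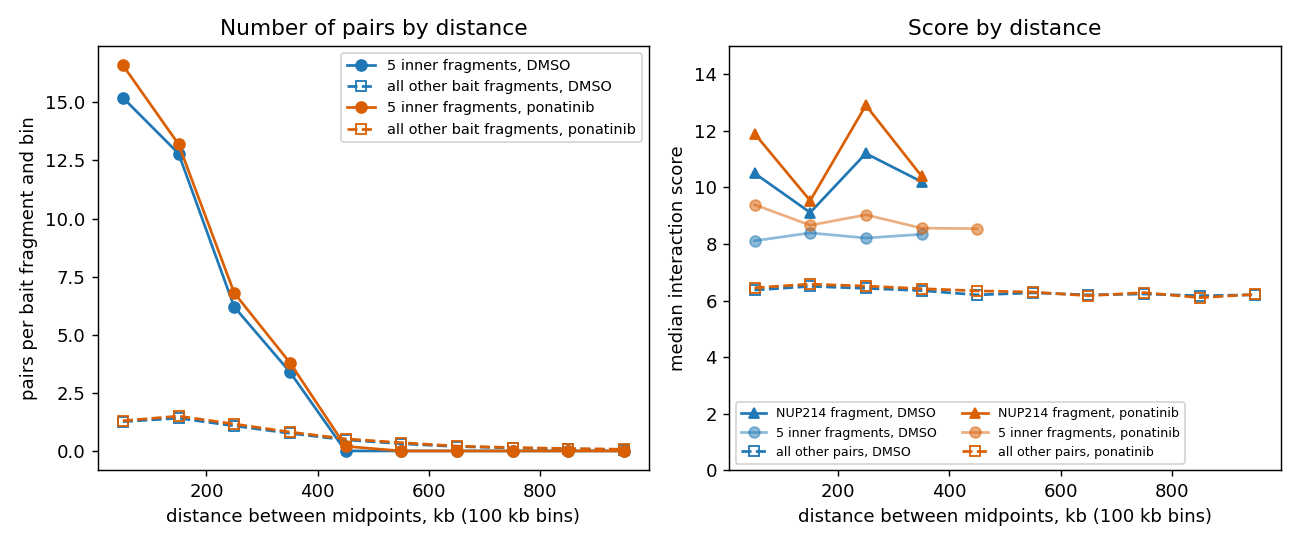
Left, mean number of pairs per bait fragment in each 100 kb bin of distance for the 5 inner fragments (circles) and all other bait fragments of the lists (squares); right, median score per bin for the NUP214 fragment (triangles), the inner fragments (circles) and all other pairs (squares). The inner fragments start at 15.2 and 16.6 pairs and reach 0 and 0.200 from 400 to 500 kb, and their scores stay above those of other pairs in every bin where they have any.

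Most partners lay in ABL1, LAMC3 and NUP214, the longest genes of the segment. Partner fragments in ABL1 took part in 56 pairs in DMSO and 63 in ponatinib, those in LAMC3 in 40 and 51, and those in NUP214 in 46 and 37. Partners in FIBCD1, a chitin-binding receptor gene between QRFP and LAMC3, were in 12 and 18, and partners in no protein-coding gene in 34 and 37. The partner fragments numbered 25 in ABL1, 16 in LAMC3 and 22 in NUP214, against 7 in FIBCD1 and 14 in no protein-coding gene. The share of pairs that gene length alone would give was not worked out. The highest score in both lists joined the fragment of ABL1 and QRFP to a fragment in LAMC3, chr9:131037457-131040012, at 148 kb, with 25.7 in DMSO and 29.65 in ponatinib. LAMC3 reached back to ABL1 at chr9:130864926-130870438 with 22.94 and 17.37. NUP214 reached the same ABL1 fragment, 259 kb away, with 16.74 and 23.83. In ponatinib it also scored 20.71 with an ABL1 fragment at 130743760 to 130748884, 381 kb away, and 20.17 with one at 130775210 to 130782573, and neither was in DMSO, where these fragments had no pair of any kind. The highest FAM78A pairs were to fragments inside NUP214, with 20.6 at 131166463 to 131168495, itself a bait, in DMSO only and 23.59 at 131177654 to 131179861 in ponatinib only. The last fragment, too, had no pair of any kind in DMSO, and the reason was not tested.

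Many partner fragments were listed for more than 1 inner fragment. The overlap that each fragment's own share of partners would give was not worked out, so the counts are descriptions. The fragments counted here were already in a listed pair. Of 86 listed fragments in the segment that are no bait, 8 were partners of all 5 inner fragments over both lists, 20 of 4 and 33 of 3, while 1 was a partner of none. NUP214 contacted 75.6% of these 86 in DMSO (65.1 to 84.2%) and 81.4% in ponatinib (71.6 to 89.0%). The fragment of ABL1 and QRFP contacted 47.7% and 57.0%, LAMC3 40.7% and 44.2%, AIF1L 23.3% and 27.9%, and FAM78A 20.9% and 20.9%. From 130725000 to the end of FAM78A, listed fragments covered 82.5% of the sequence, and the stretches between them were in no pair of either list. The longest lay in AIF1L before NUP214 (24.0 kb) and in NUP214 from 131128558 to 131145345 (16.8 kb). An ABL1 stretch of 12.0 kb, from 130827389 to 130839351, holds the downstream start of ABL1 at 130835254 shown above.

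Contacts between bait fragments were few. Bait fragments stood at both ends of 5.37% of the locus pairs in DMSO and 3.14% in ponatinib, against 20.7% and 20.4% of other pairs under 1 Mb. The segment holds 10 bait fragments, the inner 5 and 5 that hold no end of a member gene, and of the 45 possible pairs among them 5 were listed in DMSO and 2 in ponatinib. The orientation of the lists was uneven here: 8 of these 10 fragments stood only in the bait columns and never as a partner in either list, as did 52.9% of all bait fragments. Outside the segment 7 bait fragments had at least 100 pairs in a list, and 4 of these were never a partner. FAM78A was a partner 8 times in DMSO and 0 times in ponatinib. Its pairs with AIF1L (score 8.27) and NUP214 (10.76) were thus in DMSO only. The fragment of EXOSC2 and ABL1, just outside, was listed with LAMC3 at 8.34 in DMSO and 11.56 in ponatinib.

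The EXOSC2 side fragments had no partner in the first part of ABL1 past the fragment of its upstream start. From the fragment with the upstream ABL1 start, 9 of 10 partners in DMSO and 19 of 19 in ponatinib lay to the right, and the nearest on that side began at 130851267 in DMSO and 130841505 in ponatinib. The highest scores of this fragment were with ABL1 at 130864926 to 130870438, 13.2 in DMSO and 16.96 in ponatinib. The EXOSC2 start fragment reached left to ASS1, a urea cycle enzyme gene, at 130446339 to 130454356 with 9.7 in DMSO and 7.72 in ponatinib, and this was its 1 pair in both lists. Of the 7 fragments, the EXOSC2 start, with 11 and 3 pairs, was the 1 with at least 2-fold fewer in ponatinib (log2 ratio -1.58, pseudocount 1), where 6.93% of 10529 bait fragments with at least 5 pairs were. The other 6 were within 2-fold. None of the 7 had at least 2-fold more, where 10.4% of bait fragments did; the fragment of EXOSC2 and ABL1, with 10 and 19, came nearest (log2 ratio 0.86).

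The share in ponatinib is the ponatinib number over the sum of the numbers of both lists, so a shared pair is counted in each. Its interval takes these entries as independent, which shared pairs are not. Over the whole locus this share was 52.1% (47.3 to 56.9%), and over all other pairs under 1 Mb 51.9% (51.7 to 52.2%). Of the positions taken every 25 kb inside the segment, the highest share in ponatinib was at 130800000 in ABL1, with 35 and 54 pairs crossing (60.7%, 49.7 to 70.9%). The lowest was at 131275000 in FAM78A, with 23 and 18 (43.9%, 28.5 to 60.3%). Both were picked out by their values, and both intervals hold 51.9%.

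Identical pairs were in both lists more often than over all other pairs, while bait fragments elsewhere with numbers like those of NUP214 shared about as many as NUP214. Of the locus pairs 134 were shared, which is 65.4% of DMSO (58.4 to 71.9%) and 60.1% of ponatinib (53.3 to 66.6%). For other pairs under 1 Mb the shares were 46.2% (45.8 to 46.5%) and 42.8% (42.4 to 43.1%). NUP214 shared 55 pairs, 80.9% and 77.5%, the fragment of ABL1 and QRFP 29, and LAMC3 25. AIF1L shared 10, which is 47.6% and 41.7%, and FAM78A 8, which is 36.4% and 44.4%. The EXOSC2 start shared 1, or 9.09% and 33.3%. At the 5 bait fragments elsewhere closest to NUP214 in number the shares ran from 68.3 to 91.4% of DMSO and from 70.1 to 91.0% of ponatinib. The median score was 8.21 in DMSO and 8.66 in ponatinib, against 6.37 and 6.45 for other pairs. The 5 bait fragments elsewhere closest to NUP214 in number had medians of 7.57 to 9.87 in DMSO and 7.15 to 9.52 in ponatinib, and NUP214 had 10.2 and 10.9. Sharing rose with score, so it was also compared at like scores. Of DMSO pairs scoring 5 to 7, 54.5% of the locus pairs (41.8 to 66.9%) and 31.5% of others were shared. From 7 to 10 the shares were 66.2% (53.7 to 77.2%) and 60.6% (59.8 to 61.3%), and the interval of the locus holds the share of the others. Of ponatinib pairs scoring 5 to 7 the shares were 36.1% (25.1 to 48.3%) and 28.1%, so that this interval holds the share of the others, and from 7 to 10 they were 70.3% (57.6 to 81.1%) and 54.5%. At 10 or more the order was turned in both lists, with 74.6% of the DMSO pairs of the locus shared (62.9 to 84.2%) and 88.9% (88.3 to 89.5%) of others, and in ponatinib 72.4% (61.8 to 81.5%) and 84.3%.

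Some fragments of the segment were missing from 1 list altogether. Of 74 fragments of the segment that are no bait and had 10 or more pairs of any kind in a list, 21 (28.4%, 18.5 to 40.1%) had 0 in the other list, 10 present in DMSO only and 11 in ponatinib only. Outside the segment 3 of 89 fragments with 10 or more pairs did, or 3.37%. These 21 were chosen after their values were seen. The fragment 130850360 to 130851266 had 21 pairs in ponatinib and 0 in DMSO, and the next fragment, 130851267 to 130854620, had 21 in DMSO and 0 in ponatinib. Both lie in ABL1. In FIBCD1 the neighbours 130911107 to 130913249 and 130913250 to 130922940 had 18 and 20 pairs in ponatinib and 0 in DMSO. The fragment of the second NUP214 start, 131189124 to 131190201, had 12 in DMSO and 0 in ponatinib. Pairs between chromosomes were missing with the rest, and the fragment 131016893 to 131021008 in LAMC3 had 16 of them in ponatinib and 0 in DMSO.

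**Figure D4:**
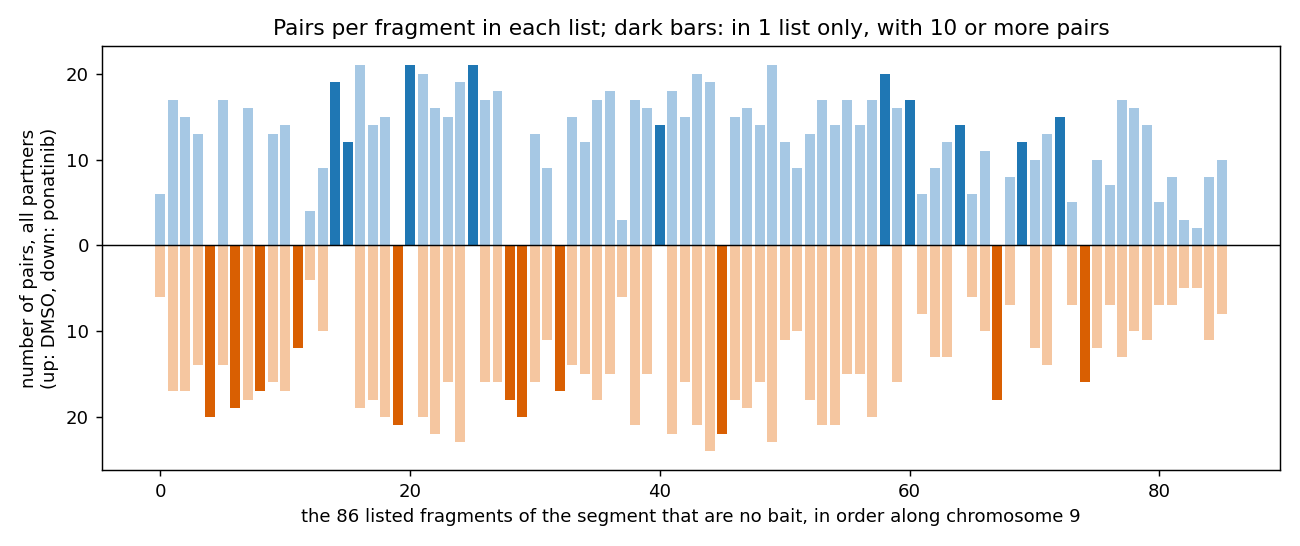
Number of pairs of any kind for each of the 86 listed fragments of the segment that are no bait, in their order along the chromosome, in DMSO (upward) and ponatinib (downward). Dark bars mark the 21 fragments with 10 or more pairs in 1 list and 0 in the other, which are interspersed among fragments listed in both, some side by side.

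These fragments held 34 of the 71 locus pairs found in DMSO only (47.9%, 35.9 to 60.1%) and 38 of the 89 found in ponatinib only (42.7%, 32.3 to 53.6%). Their pairs had median scores of 9.50 and 11.0, while the other pairs in 1 list only had 6.06 and 5.73. None of the pairs of these fragments could be in both lists, so leaving the fragments out raises the shared part by construction. Other pairs under 1 Mb were not filtered in this way. Without these fragments the locus had 171 and 185 pairs, of which 134 were shared. That is 78.4% of DMSO (71.4 to 84.3%) and 72.4% of ponatinib (65.4 to 78.7%). At scores of 10 or more the shared part was then 94.6% (85.1 to 98.9%) and 94.0% (85.4 to 98.3%). The pairs crossing 130800000 were then 31 and 41, a share in ponatinib of 56.9% (44.7 to 68.6%).

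Shared pairs had the higher score in ponatinib in 90 cases and the lower in 44, or 67.2% higher, against 53.7% of other shared pairs under 1 Mb. At NUP214 40 were higher and 15 lower, and at the fragment of ABL1 and QRFP 22 and 7. At AIF1L 8 were higher and 2 lower, at LAMC3 12 and 13, and at FAM78A 3 and 5. The median of the shared pairs was 8.57 in DMSO and 9.77 in ponatinib. For NUP214 it was 9.68 and 10.6, and for ABL1 and QRFP 11.3 and 13.2. Pairs of 1 bait fragment share that bait, and scores were not normalised between the lists, so these numbers describe the lists.

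**Figure D5:**
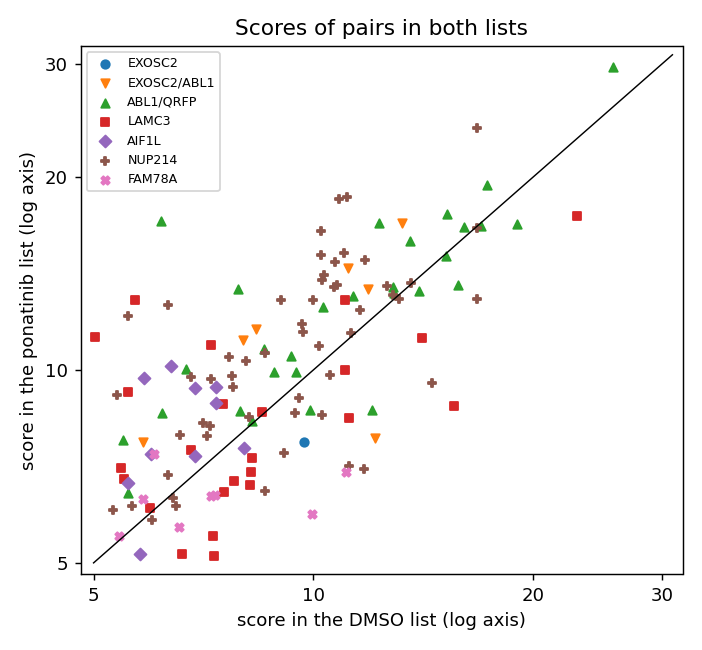
Score of each of the 134 pairs found in both lists, DMSO on the x axis and ponatinib on the y axis (log axes), with a symbol per bait fragment and the line of equal scores. Most NUP214 and ABL1/QRFP points lie above the line, while LAMC3 points lie on both sides.

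The neighbouring genes outside the segment had 0 to 8 pairs each, where the median of other bait fragments was 4 in each list. HMCN2 had 2 pairs under 1 Mb in DMSO and 7 in ponatinib, RAPGEF1 5 and 8, FUBP3 and PRDM12 3 and 3 each, and ASS1 1 and 1. POMT1 and UCK1 had 0 and 1 each, and PLPP7 and PRRC2B had no listed bait fragment. FIBCD1, inside the segment, had 58 and 57, with 46 shared. Bait fragments elsewhere with numbers nearest to those of NUP214 lay in OPN3 and CHML on chromosome 1 (70 and 76), at TEDDM1 on chromosome 1 (73 and 67), RAI14 on chromosome 5 (61 and 67), TMEM60 and PHTF2 on chromosome 7 (63 and 57) and in CFAP68 on chromosome 11 (59 and 57). None of these 5 had a pair between chromosomes, while NUP214 had 599 in DMSO and 736 in ponatinib, 286 and 310 of them with chromosome 22.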

How the data were processed

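Promoter-capture Hi-C was done on K562 cells with HindIII and 1 library per treatment, as the labels state. The authors deposited 1 list per library, with a captured fragment, the fragment it met and a score on each line; the score is the authors' own value and none is below 5. Coordinates are of hg38 according to the submitters' processing notes. The sources used here do not name the aligner, the caller or the score's definition. Lines were read as unordered pairs (1 ponatinib pair stood in both orientations). Gene positions came from a RefSeq table of GRCh38.p14. A gene was placed on each bait fragment, in columns 1 to 3 of either list, that holds one of its ends. Distance was between midpoints, in 100 kb bins, and crossings were counted every 25 kb. Read counts, and so depth, are unknown; neither scores nor numbers were corrected for it. Printed intervals are exact binomial at 95% (scipy 1.17.1). In the closing section, the unprinted 95% intervals of the number per fragment are Poisson, and those of median scores come from the ranked scores. Named genes were the 7 members, 10 fixed neighbours, genes at the 5 highest scores of each list and the 5 bait fragments nearest to NUP214 by log2(number + 1). Members, lists and rules were chosen with earlier results of these data known. Pair handling was tested on simulated data. Alternatives are in the closing section.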

Additional observations from a re-analysis of the deposited data

Results flagged for a closer look

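The pairs between chromosomes lie outside the contacts counted above, and 5 of the 7 fragments had many. The NUP214 fragment had 599 in DMSO and 736 in ponatinib, the fragment of ABL1 and QRFP 165 and 188, LAMC3 96 and 119, AIF1L 100 and 128, and FAM78A 109 and 119. With chromosome 22 as the partner there were 139 and 146 at ABL1 and QRFP, 79 and 95 at LAMC3, 53 and 67 at AIF1L, and 6 and 2 at FAM78A. The EXOSC2 start fragment had 0 and 0 between chromosomes and the fragment of EXOSC2 and ABL1 1 and 0. No control library without the rearrangement was analysed here.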

How the results depend on the processing

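Across 111 values of 12 results under the alternatives, 92 lay inside the interval of the value reported. The share of DMSO pairs also in ponatinib was 57.2% without the NUP214 fragment, 88.3% with ends matched within 5 kb and 92.7% within 10 kb. Without the 21 fragments listed in 1 library only, an alternative chosen after seeing the data, it was 78.4%. This rise was by construction, because no pair of those fragments can be shared. Counting pairs at 300 kb or more in place of 500 kb gave 9.27% in DMSO and 11.7% in ponatinib. Median scores were 10.2 and 10.8 with scores of at least 7 and 12.1 and 13.4 with at least 10, by construction, and 7.68 in ponatinib without NUP214. The number per member fragment over that of other bait fragments was 5.18 in DMSO and 5.20 in ponatinib. It was 4.08 and 4.15 without NUP214, 6.08 and 6.27 without pairs between bait fragments, and 4.24 in DMSO with scores of at least 10. The 0.488% of DMSO pairs crossing the end of FAM78A is 1 pair, of NUP214, and was 0 with scores of at least 7 or 10 or without that fragment. For single fragments 65 of 68 values lay inside; the share in ponatinib at FAM78A, 45.0%, was 23.1% with scores of at least 7 and 20.0% with at least 10, and that at AIF1L, 53.3%, was 33.3% with at least 10. The share at LAMC3, 52.6%, was 46.8% with at least 7, and that at NUP214, 51.1%, was 49.0% with the ponatinib number divided by the ratio of list lengths. At the EXOSC2 start a score of at least 10 gave no value. Gene ends within 1 kb added 0 bait fragments. No paired analysis was possible because each treatment is 1 library. Unknown depth limits every number.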

Other observations

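Of the bait fragments in the segment that hold no end of a member gene, 4 had contacts as dense as the inner fragments and 1 did not. The fragment at 130928065 to 130936367 in FIBCD1 had 48 pairs under 1 Mb in DMSO and 57 in ponatinib, the next one, which holds a FIBCD1 end, 58 and 57, the one at 131021009 to 131027030 in LAMC3 had 56 and 54, and the one at 131190202 to 131199007 in NUP214 had 29 and 35. The fragment at 131166463 to 131168495, also in NUP214 and 2.03 kb long, had 2 and 3. On the right none of the 5 reached past 131291243. On the left some passed the start of ABL1: the one with the FIBCD1 end reached a fragment from 130689810 in DMSO and one from 130696932 in ponatinib, the first named reached 130696932 in ponatinib, and the one at 131021009 reached 130701356 in ponatinib.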
